A study of Mus musculus with 6 samples.

Results

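The 40 genes described here encode proteins of striated muscle, the contractile tissue of skeletal muscle and heart, and were taken by gene symbol from a table of 24421 symbols. They cover the sarcomere, calcium handling and muscle metabolism, all 40 have a row in the table, and 35 passed the filter on low counts. RNA sequencing counts came from 6 neurofibromas, which are benign nerve sheath tumours, of C57BL/6J mice. All 6 had the genotype Nf1fl/fl; DhhCre, in which Cre driven by Dhh, a Schwann lineage gene, deletes Nf1, a brake on Ras signalling. The 3 tumours MiRNC149, MiRNC640 and MiRNC670 (group miR155KO_Nf1KO) also carried a knockout of the microRNA miR-155, and the 3 tumours Nf803, Nf809 and Nf827 (group Nf1KO) did not. The labels give the genotypes as Mir-155 KO and Nf1 -/-. The stated purpose was to look for targets of miR-155. No drug was given, the mice were kept until a set time or tumour size, and ages are not stated. Values by tumour follow the order MiRNC149, MiRNC640, MiRNC670 in miR155KO_Nf1KO and Nf803, Nf809, Nf827 in Nf1KO. Nothing in the labels says that muscle was sampled on purpose, or that each tumour came from a separate mouse, so the p-values reflect the variation among these tumours, which may be technical.

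A muscle fibre shortens when myosin of the thick filament pulls on actin of the thin filament, and both filaments are repeated in sarcomeres that end at Z-discs. Calcium released from the sarcoplasmic reticulum binds troponin and frees the actin, and a calcium pump then returns it to the store. Fast and slow fibres use different isoforms of myosin, troponin and calcium pump, the heart shares several isoforms with slow fibres, and a further set is used mainly before or around birth. The 40 genes were therefore split into 13 fast isoforms and 9 genes classed as slow or as shared by slow fibres and heart. A further 3 mark developing muscle or heart (Actc1, Myh3 and Myh8), and 15 are used in striated muscle of all kinds. The 9 were Myh7, Myl2, Myl3, Tnnt1, Tnni1, Tnnc1, Actn2, Mybpc1 and Sln. Whether each of them is confined to slow fibres or heart was not tested.

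Column totals ran from 13061129 to 16333181 reads. Mir155hg, the host transcript of miR-155, had 5, 3 and 1 reads in miR155KO_Nf1KO, against 57, 66 and 71 reads in Nf1KO, so each library matched its miR-155 label (Nf1, deleted in all 6, was not checked). The 5 Schwann cell markers summed to between 1977 and 2197 CPM in miR155KO_Nf1KO and between 1452 and 1879 CPM in Nf1KO, where CPM is reads per 1000000 after TMM scaling. By Xist and Y-linked counts, MiRNC640, MiRNC670 and Nf809 were male, and MiRNC149, Nf803 and Nf827 were female. For the muscle genes, tumours Nf809 and MiRNC670 stood above the rest and Nf827 stood below it, so the comparison of groups is also given without the first 2 of these.

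Muscle transcripts differed far more between tumours of 1 group than between the groups. The 40 genes summed to 1698, 3587 and 17233 CPM in miR155KO_Nf1KO, against 939, 27725 and 217 CPM in Nf1KO. They made up 1.67% of all reads in MiRNC670 and 2.75% in Nf809, and between 0.022% and 0.355% in the other 4 tumours. Both groups thus held 1 tumour with many muscle reads, and the lowest tumour was in Nf1KO. In bulk tissue, fewer muscle fibres in the piece and less RNA per fibre cannot be told apart.

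The genes moved together across tumours. Nf809 and MiRNC670 were the 2 highest tumours for 34 of the 35 tested genes, and the full order Nf809, MiRNC670, MiRNC640, MiRNC149, Nf803, Nf827 held for 20 of them. Tumour MiRNC670 was above MiRNC149 in all 35 by a median of 9.45-fold, and Nf809 was above Nf803 in 34 by a median of 27.0-fold, on the scale of log2 CPM with a prior count of 2. The SD within groups on that scale had a median of 2.53 over the 35 genes and 0.31 over all 15604 genes tested. Of the 35 genes, 30 lay above the 99th percentile of all genes for this spread (1.89), and the lowest of the 35 was Actc1 (0.98).

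**Figure D1:**
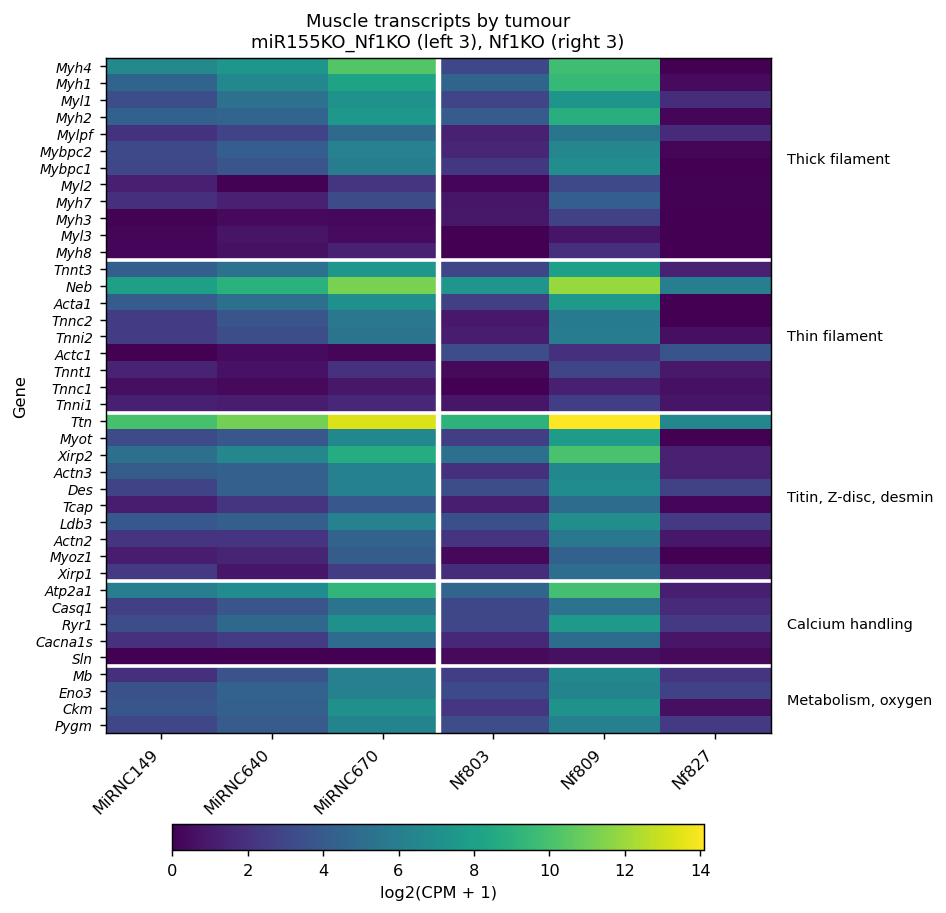
Level of each of the 40 muscle genes, as log2(CPM + 1), in each tumour, with rows grouped by role and ordered by level per kilobase, and the 3 tumours of miR155KO_Nf1KO left of the 3 of Nf1KO. Nearly every row is brightest in Nf809 and MiRNC670 and darkest in Nf827, and the Actc1 row is bright in Nf803 and Nf827 instead.

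The thick filament was led by fast myosin. Myh4, the myosin heavy chain of type IIb fibres (chromosome 11, 67238029 to 67260446), was at 97.8, 169 and 1271 CPM in miR155KO_Nf1KO, against 7.40, 861 and 0 CPM in Nf1KO. Myh1, the heavy chain of type IIx fibres, was at 22.1, 95.03 and 292 CPM in miR155KO_Nf1KO, against 22.1, 692 and 0.335 CPM in Nf1KO. Myh4 was thus the highest in MiRNC670 and Myh1 in Nf809, and for both genes the groups overlapped. Myl1, a fast essential light chain, was at 9.40, 38.1 and 148 CPM in miR155KO_Nf1KO, against 6.61, 158 and 2.61 CPM in Nf1KO. Myh7, the slow and cardiac heavy chain (chromosome 14, 54970684 to 54994626), was at 2.83, 1.49 and 8.63 CPM in miR155KO_Nf1KO, against 0.798, 17.5 and 0.0670 CPM in Nf1KO. The slow chain followed the same 2 high tumours at a much lower level. The myosin light chains Mylpf (fast) and Myl2 (slow and cardiac) and the myosin binding proteins Mybpc1 (slow) and Mybpc2 (fast) were also highest in Nf809, at 43.6, 7.48, 121 and 92.0 CPM. Myl3, another slow and cardiac light chain, had at most 12 reads in any tumour and was not tested.

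Thin filament genes had the same pattern, apart from Actc1. Acta1, skeletal muscle actin (chromosome 8, 123891769 to 123894751), was at 16.5, 35.5 and 135 CPM in miR155KO_Nf1KO, against 5.37, 193 and 0 CPM in Nf1KO. The 0 reads in Nf827 allow up to 0.201 CPM. Neb, the giant ruler protein nebulin, was at 258, 503 and 2431 CPM in miR155KO_Nf1KO, against 164, 3832 and 63.5 CPM in Nf1KO. Tnnt3, fast troponin T, which ties troponin to the thin filament, was at 17.6, 38.1 and 170 CPM in miR155KO_Nf1KO, against 6.75, 247 and 1.41 CPM in Nf1KO. All 3 were highest in Nf809 and lowest in Nf827, and their groups overlapped. Tnni2, the inhibitory subunit of fast fibres, was at 4.76, 9.05 and 42.8 CPM in miR155KO_Nf1KO, against 1.16, 60.1 and 0.469 CPM in Nf1KO. Tnnc2, the calcium-binding subunit of fast fibres, was at 4.44, 12.2 and 49.7 CPM in miR155KO_Nf1KO, against 0.944, 54.3 and 0 CPM in Nf1KO. Of the exon bases of Tnnc2, 74.0% lie opposite exons of the mitosis gene Ube2c, which had 37 to 69 reads in miR155KO_Nf1KO and 73 to 152 reads in Nf1KO, so Tnnc2 counts are uncertain where strand was not used.

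Titin held most of the muscle reads. Ttn, which spans the sarcomere as an elastic filament (chromosome 2, 76703980 to 76982547, 116.8 kb of exons), was at 1016, 2235 and 10359 CPM in miR155KO_Nf1KO, against 552, 17532 and 94.4 CPM in Nf1KO. It took between 58.8% and 63.2% of the reads of the 40 genes in every tumour but Nf827, where it took 43.5%. In Nf827, Neb took 40.2% of the reads of Neb and Ttn (95% exact binomial interval 38.2% to 42.2%), against 17.9% to 22.9% in the other 5 tumours. Xirp2, an actin-binding repeat protein of cell junctions and Z-discs, was at 35.2, 92.3 and 421 CPM in miR155KO_Nf1KO, against 35.3, 1040 and 1.41 CPM in Nf1KO. Myot, the Z-disc protein myotilin, was at 8.43, 13.0 and 96.1 CPM in miR155KO_Nf1KO, against 5.15, 221 and 0 CPM in Nf1KO. Ranges of the groups overlapped for each of these. The Z-disc actinins Actn2 and Actn3, the Z-disc proteins Ldb3, Tcap and Myoz1, and the intermediate filament gene Des ran the same way, from at most 5.76 CPM in Nf827 to between 19.8 and 124 CPM in Nf809. Xirp1, a paralogue of Xirp2, was at 33.2 CPM in Nf809 and at most 4.67 CPM in the other tumours.

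Calcium handling genes included the most abundant transcript per unit length. Atp2a1, the fast calcium pump SERCA1 (chromosome 7, 126445858 to 126463108), was at 65.0, 109 and 616 CPM in miR155KO_Nf1KO, against 23.7, 943 and 1.27 CPM in Nf1KO. Its exons overlap those of Rabep2 on the opposite strand over 21.9% of their length, and Rabep2 had 112 reads or fewer in each tumour. Ryr1, the release channel of the sarcoplasmic reticulum, was at 9.08, 26.1 and 134 CPM in miR155KO_Nf1KO, against 7.11, 191 and 4.22 CPM in Nf1KO. Casq1, the calcium-binding calsequestrin of skeletal muscle, was at 5.41, 12.1 and 42.4 CPM in miR155KO_Nf1KO, against 7.26, 40.8 and 2.28 CPM in Nf1KO. Casq1 thus peaked in MiRNC670. Cacna1s, the voltage sensor that opens Ryr1, was at 30.02 CPM in MiRNC670 and 30.2 CPM in Nf809. Sln, which encodes sarcolipin, an inhibitor of the calcium pump, had 0 reads in all 3 tumours of miR155KO_Nf1KO, against 4, 9 and 4 reads in Nf1KO. For these 0 and 17 pooled reads, the exact 95% binomial lower limit on the ratio of Nf1KO over miR155KO_Nf1KO was 3.95. That limit covers counting error only and leaves out the spread between tumours, and Sln was too low to be tested.

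The metabolic genes were also highest in Nf809 and MiRNC670. Ckm, muscle creatine kinase, was at 12.5, 19.0 and 134 CPM in miR155KO_Nf1KO, against 3.70, 151 and 0.469 CPM in Nf1KO. Eno3, muscle enolase, was at 10.2, 20.4 and 72.6 CPM in miR155KO_Nf1KO, against 8.06, 82.0 and 5.96 CPM in Nf1KO. Mb, the oxygen store myoglobin, was at 2.77, 11.0 and 69.5 CPM in miR155KO_Nf1KO, against 5.08, 93.4 and 3.48 CPM in Nf1KO. Pygm, muscle glycogen phosphorylase, was at 80.8 CPM in MiRNC670, 73.3 CPM in Nf809 and 4.35 CPM in Nf827. Eno3, Mb and Pygm thus had reads in Nf827, where Acta1 and Myh4 had none. Per kilobase of exons in Nf809, the order was Atp2a1 (271 CPM per kb), Tnnt3 (156), Ttn (150), Neb (144), Myh4 (143), Acta1 (125), Myh1 (109), Myot (99.9), Xirp2 (86.8), Myl1 (76.0) and Tnnc2 (67.9), and Myh4 led in MiRNC670 (211 CPM per kb) ahead of Atp2a1 (177).

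Between the groups, 1 of the 35 tested genes passed the test. Over all 15604 genes tested, 9.96% were called in either direction. By edgeR's quasi-likelihood test at a Benjamini-Hochberg adjusted p under 0.05, 0 of 35 were higher in miR155KO_Nf1KO, where 5.22% of all genes were called higher, and 1, Actc1, was lower, where 4.74% of all genes were called lower. At an unadjusted p under 0.05 the count was also 1 of 35, against 26.7% of all genes, and DESeq2 also called 0 higher and 1 lower, against 9.54% and 9.44% of all genes, with no adjusted p for 10 of the 35. The other 34 had log2 fold changes between -1.95 (Xirp1) and 0.82 (Myh4), 10 of them positive, with standard errors between 0.80 and 2.05 and adjusted p from 0.378 upward. The median standard error of these 34 was 1.49, against 0.26 over all genes, so differences of several-fold in either direction could not be told from the spread between tumours. The median log2 fold change was -0.35 over the 35 and 0.01 over all genes. Actc1 was also the 1 gene of 35 whose groups did not overlap, against 32.6% of all genes tested, 16.3% in each direction.

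The group comparison turned on tumours Nf809 and MiRNC670. Without Nf809, log2 fold changes were positive for 34 of 35 tested genes (median 3.30, and 0.04 over all genes). Then 5 were called higher in miR155KO_Nf1KO, where 7.38% of all genes were, and Actc1 was again called lower, where 6.61% were. The 5 were all fast isoforms: Myh4 (7.12, adjusted p = 0.0478), Tnnc2 (5.55, adjusted p = 0.0485), Mybpc2 (5.02, adjusted p = 0.0444), Tnni2 (4.52, adjusted p = 0.0418) and Actn3 (4.10, adjusted p = 0.0183), each by edgeR with Benjamini-Hochberg adjustment. Without both Nf809 and MiRNC670, 33 of 34 tested genes had a positive value, with a median of 1.75, and Actn3 (3.09, adjusted p = 0.0239, edgeR) was the 1 gene called higher, where 3.61% of all genes were, and Actc1 (-5.92, adjusted p = 0.0316, edgeR) the 1 called lower, where 3.24% were. Without MiRNC670 alone, the direction was the reverse, with a negative value for 36 of 37 tested genes and a median of -1.78. Then edgeR called 0 muscle genes and 0.0% of all genes, and 1 of 37 muscle genes had an unadjusted p under 0.05, against 20.2% of all genes. In limma voom with sample quality weights, which were lowest for Nf809, 33 of 35 values were positive (median 2.19), with 0 called higher and 1 lower, against 9.52% and 7.63% of all genes. Voom fits log2 values. On a log2 CPM scale (prior count 2) the 35 genes averaged 3.02, 3.70 and 5.91 in miR155KO_Nf1KO, against 2.28, 6.67 and 0.190 in Nf1KO. How far the weights or the log scale set the direction with voom was not tested. Actn3, the alpha-actinin of fast glycolytic fibres, was at 17.1, 18.9 and 71.6 CPM in miR155KO_Nf1KO, against 2.69, 94.8 and 1.47 CPM in Nf1KO. For these 5 genes, all 3 tumours of miR155KO_Nf1KO lay above Nf803 and Nf827, and Nf809 lay inside or above their range.

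**Figure D2:**
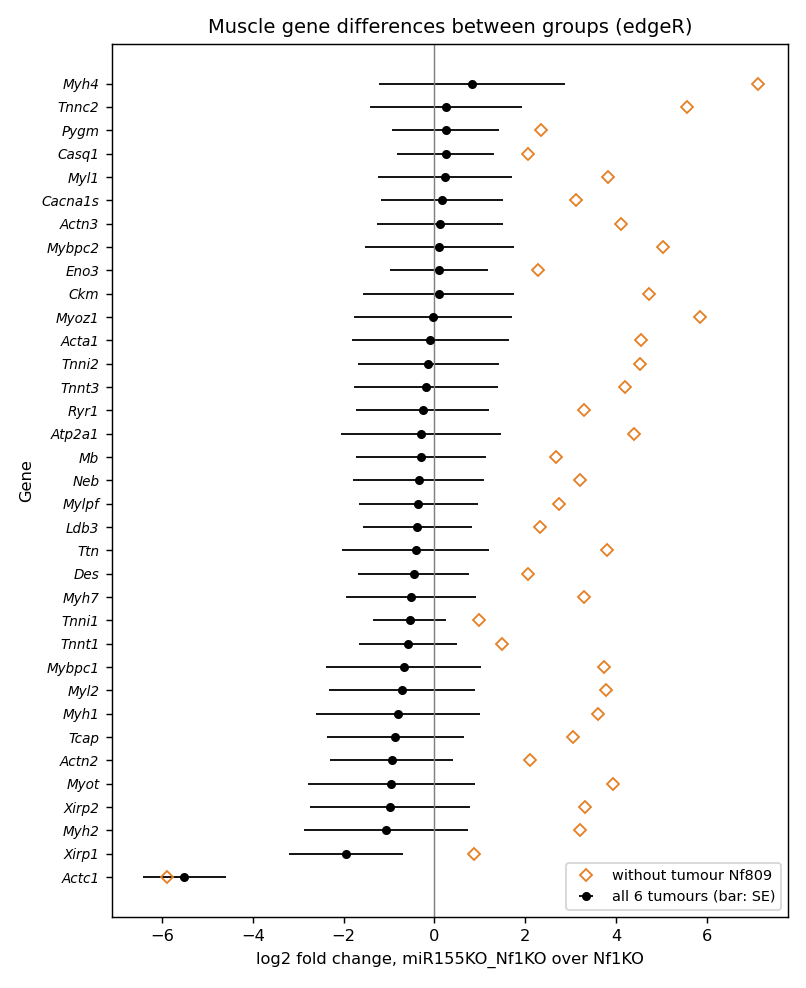
Log2 fold change of each of the 35 tested muscle genes, miR155KO_Nf1KO over Nf1KO, with all 6 tumours (filled circles, bars show the standard error) and without tumour Nf809 (open diamonds). Actc1 is at -5.51 and -5.89, while the other 34 genes lie between -1.95 and 0.82 in the first and between 0.86 and 7.12 in the second.

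Fast isoforms outweighed slow ones in every tumour. Summed per kilobase of exons, the 13 fast genes made up 94.0%, 97.1% and 97.2% of the fast and slow sum in miR155KO_Nf1KO, against 92.2%, 95.3% and 80.6% in Nf1KO. In Nf809 the sum of the slow class, 51.9 CPM per kb, came mostly from Mybpc1 (26.6) and Actn2 (12.9), with Myl2 next (3.84). Neither Mybpc1 nor Actn2 was shown to be confined to slow fibres, so sums and medians of this class do not measure slow fibres alone. Of 13 tested fast genes the median log2 fold change was -0.02, and of 6 tested slow or slow and cardiac genes it was -0.63. In both classes edgeR called 0, against 9.96% of all genes, and 0 had an unadjusted p under 0.05 by edgeR, against 26.7% of all genes. DESeq2 also called 0, where it called 9.54% of all genes higher and 9.44% lower. It gave no p for the fast genes Myh2, Myh4, Actn3, Atp2a1 and Myoz1 or for Mybpc1 of the slow class, so these could not be called. Slow troponin I (Tnni1) was at 1.35, 1.22 and 1.98 CPM in miR155KO_Nf1KO, against 0.798, 5.07 and 0.736 CPM in Nf1KO. Slow troponin T (Tnnt1) was at 1.67, 0.608 and 3.01 CPM in miR155KO_Nf1KO, against 0.290, 6.61 and 0.937 CPM in Nf1KO. Slow and cardiac troponin C (Tnnc1) had 8, 4 and 11 reads in miR155KO_Nf1KO, against 0, 22 and 8 reads in Nf1KO, and was not tested. The slow share of each troponin pair was highest in Nf827, which had the fewest muscle reads. Tnni1 was 4.42% of the reads of Tnni1 and Tnni2 in MiRNC670 and 7.77% in Nf809, and it was 61.1% of 18 reads in Nf827 (95% exact binomial interval 35.7% to 82.7%). Tnni1 has the longer exons, and per kilobase its share was 1.89% in MiRNC670, 3.39% in Nf809 and 39.5% in Nf827.

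Among fast fibre types, the myosin mix differed between the 2 high tumours. Myh4 made up 68.7%, 58.5% and 72.5% of the reads of the adult heavy chains Myh1, Myh2, Myh4 and Myh7 in miR155KO_Nf1KO. It made up 16.0% and 42.5% in tumours Nf803 and Nf809, and 0 of 9 reads in Nf827. The 95% exact binomial intervals, which cover counting error only, were 71.9% to 73.1% in MiRNC670, 57.0% to 59.99% in MiRNC640, 41.9% to 43.0% in Nf809 and 13.3% to 19.1% in Nf803. Myh2, the chain of type IIa fibres, ran the other way, at 13.8%, 8.07% and 10.4% in miR155KO_Nf1KO, against 34.4%, 22.5% and 33.3% in Nf1KO, the last being 3 of 9 reads. The groups did not overlap for the share of Myh4 or of Myh2, but Nf827 rests on 9 reads. Its 95% exact binomial interval was 0.0% to 33.6% for Myh4. For Myh2 it was 7.49% to 70.1%, which covers all 3 values of miR155KO_Nf1KO. The shares of Myh4 and Myh2 were chosen after their values were seen and were given no test, since 3 tumours against 3 cannot reach a two-sided exact permutation p below 0.1. The heavy chain genes are close copies of each other, and how reads that match several of them were counted is not stated in the sources. Embryonic Myh3 and perinatal Myh8 together gave at most 1.85% of heavy chain reads in any tumour, and Myh3 reached 91 reads in Nf809.

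**Figure D3:**
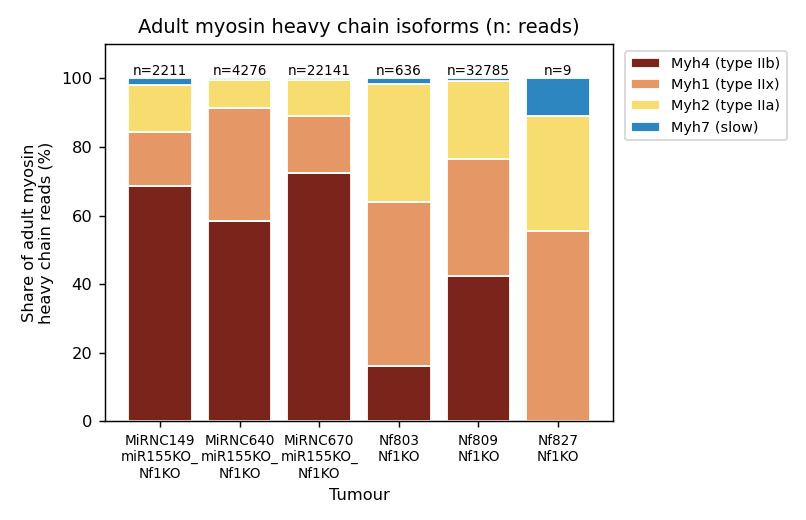
Share of adult myosin heavy chain reads (%) from Myh4, Myh1, Myh2 and Myh7 in each tumour, with the number of reads above each bar. Myh4 takes 58.5% to 72.5% in the 3 tumours of miR155KO_Nf1KO and 42.5% or less in the 3 of Nf1KO, of which Nf827 has 9 reads only.

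Actc1, cardiac actin, fell in miR155KO_Nf1KO and did not follow the other muscle genes. This gene (chromosome 2, 114047282 to 114053548), used in heart and in developing skeletal muscle, had 0, 5 and 2 reads in miR155KO_Nf1KO, against 127, 46 and 171 reads in Nf1KO. Within Nf1KO it was lowest in Nf809, which had the most muscle reads, and highest in Nf827, which had the fewest. The level was 0.165 ± 0.169 CPM in miR155KO_Nf1KO and 7.84 ± 4.47 CPM in Nf1KO (SD, n = 3 each), a log2 fold change of -5.51 (SE 0.92) with a Benjamini-Hochberg adjusted p of 0.0236 by edgeR. From pooled reads (7 in miR155KO_Nf1KO and 344 in Nf1KO), the level in Nf1KO was 47.0 times that in miR155KO_Nf1KO (95% exact binomial interval 22.6 to 118). This interval covers counting error only and leaves out the spread between tumours. The direction was the same without each tumour in turn, and the adjusted p by edgeR was 0.0544 without MiRNC640, 0.0994 without MiRNC670, 0.0843 without Nf803 and 0.0740 without Nf827, and without each of the last 3 no gene in the table was called. Of the reads of Acta1 and Actc1, Actc1 took at most 0.943% in miR155KO_Nf1KO, against 63.2% of 201, 1.46% of 3161 and 100% of 171 reads in Nf1KO. The actin genes are near copies in their coding sequence, so reads may have been shared between them.

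Other genes used mainly in the heart were looked at beside Actc1. Of 10 such genes 4 could be tested and 0 were called by edgeR, with 2 at an unadjusted p under 0.05, where 26.7% of all genes were, and 2 called lower by DESeq2, Tnnt2 and Tbx20. Tnnt2, cardiac troponin T, was at 0.322, 0.135 and 1.11 CPM in miR155KO_Nf1KO, against 5.66, 1.17 and 7.90 CPM in Nf1KO (log2 fold change -3.25, SE 0.93, edgeR adjusted p = 0.0707). Its order within Nf1KO was that of Actc1. The groups of Tnnt2 did not overlap, with 14 reads in MiRNC670 against 19 reads in Nf809, and 16.3% of all genes lay wholly lower in miR155KO_Nf1KO. Tbx20, a cardiac transcription factor, had a log2 fold change of -2.58 (SE 0.67, edgeR adjusted p = 0.0550) and was highest in Nf809 (13.0 CPM). Casq2, cardiac calsequestrin, from the list of other calcium genes, fell to 16.8 ± 2.81 CPM in miR155KO_Nf1KO, against 48.0 ± 17.9 CPM in Nf1KO (SD, n = 3 each; log2 fold change -1.51, SE 0.29, edgeR adjusted p = 0.0272). It was highest in Nf803 (66.9 CPM) and not in the 2 tumours with most muscle reads, and it lost its call without MiRNC640, MiRNC670, Nf803 or Nf827 (adjusted p by edgeR between 0.0799 and 0.108). Of all genes, 0.618% were called higher and 0.268% lower without MiRNC640, and 0.0% without MiRNC670, Nf803 or Nf827. Myh6, a cardiac heavy chain, and Tnni3, cardiac troponin I, were not called either, at 0.36 (SE 0.30) and -0.21 (SE 0.40) on the log2 scale, and their groups overlapped. Nppb, a cardiac natriuretic peptide, had 21 reads in miR155KO_Nf1KO and 3 reads in Nf1KO. The 10 heart genes summed to 26.1, 17.1 and 23.8 CPM in miR155KO_Nf1KO, against 31.6, 24.9 and 40.6 CPM in Nf1KO, with overlap between the groups. Nkx2-5, a heart-defining transcription factor, had 0 reads in all 6 tumours.

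**Figure D4:**
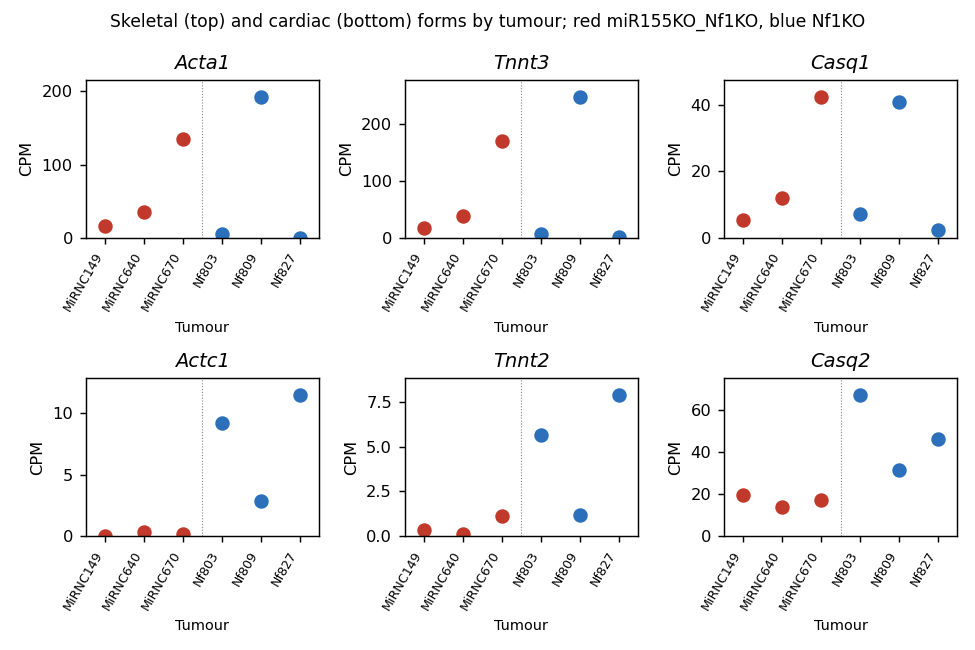
CPM of the skeletal forms Acta1, Tnnt3 and Casq1 (top) and of their cardiac forms Actc1, Tnnt2 and Casq2 (bottom) in each tumour, miR155KO_Nf1KO in red left of Nf1KO in blue. The skeletal forms peak in MiRNC670 and Nf809, whereas these 3 cardiac forms, chosen after their values were seen, are highest in Nf803 or Nf827. These 3 are lower in all 3 tumours of miR155KO_Nf1KO than in any of Nf1KO, as are 16.3% of all genes tested. For the heart genes Myh6 and Tnni3, not shown, the groups overlap.

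The promoters of Acta1, Actc1 and Myh4 are shown because Acta1 and Myh4 had the same high and low tumours while Actc1 did not. Each runs 5′ to 3′ from 250 bases before to 50 bases after the start site in the RefSeq table for GRCm38.p6, with matches on either strand to CAGCTG (an E-box form that myogenic factors bind), the CArG box (bound by serum response factor), the MEF2 box and TATAAA in capitals.
Acta1, chr8:123894726-123895025, minus strand: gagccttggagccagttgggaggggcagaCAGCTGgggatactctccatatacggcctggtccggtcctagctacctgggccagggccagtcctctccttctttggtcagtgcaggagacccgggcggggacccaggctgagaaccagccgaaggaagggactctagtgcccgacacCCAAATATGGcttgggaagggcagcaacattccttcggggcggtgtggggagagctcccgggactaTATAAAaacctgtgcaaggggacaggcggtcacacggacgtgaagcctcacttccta
Actc1, chr2:114052826-114053125, minus strand: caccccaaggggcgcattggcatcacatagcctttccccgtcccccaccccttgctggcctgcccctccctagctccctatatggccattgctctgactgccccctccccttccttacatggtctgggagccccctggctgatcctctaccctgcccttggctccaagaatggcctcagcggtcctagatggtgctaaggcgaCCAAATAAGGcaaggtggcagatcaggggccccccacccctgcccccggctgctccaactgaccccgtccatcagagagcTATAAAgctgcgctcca
Myh4, chr11:67237562-67237861, plus strand: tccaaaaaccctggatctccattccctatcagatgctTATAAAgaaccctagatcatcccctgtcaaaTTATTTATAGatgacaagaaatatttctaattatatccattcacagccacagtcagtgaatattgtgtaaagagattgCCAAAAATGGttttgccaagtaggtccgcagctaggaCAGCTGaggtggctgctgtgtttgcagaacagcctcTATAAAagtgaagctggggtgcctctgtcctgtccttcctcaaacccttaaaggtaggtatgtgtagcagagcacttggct
Acta1 and Actc1 each hold 1 CArG box and 1 TATAAA, and Acta1 and Myh4 each hold 1 CAGCTG, which the Actc1 window lacks. The windows of Myh1, Myh2, Ttn and Xirp2, which like Acta1 were highest in Nf809, also lack CAGCTG. Of the 40 genes 31 matched the table, with 37 promoters, and CAGCTG was in 48.6% of these against 16.3% of all 32851 promoters. Counted by gene, 15 of the 31 had it. The CArG box was in 16.2% against 1.63%, the MEF2 box in 13.5% against 3.19%, and TATAAA in 27.0% against 13.6%. Matches to the last 3 motifs can share bases. A match describes the letters only.

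A second list of 19 sarcomere genes summed to 486, 453 and 1237 CPM in miR155KO_Nf1KO, against 519, 1762 and 516 CPM in Nf1KO. The sum was highest in the same 2 tumours, but single genes such as Tpm3 and Flnc, a Z-disc filamin, were not. Of 18 tested genes of this list, 0 were called higher and 1 lower in miR155KO_Nf1KO (median log2 fold change -0.62). For this and the next lists, edgeR called 5.22% of all genes higher and 4.74% lower, and 26.7% had an unadjusted p under 0.05. The gene called lower was Tpm3, a tropomyosin also used outside muscle, which averaged 102 ± 11.8 CPM in miR155KO_Nf1KO, against 155.3 ± 16.8 CPM in Nf1KO (SD, n = 3 each; -0.61, SE 0.14, edgeR adjusted p = 0.0395). Tpm2, another tropomyosin, was at 44.2, 64.1 and 288 CPM in miR155KO_Nf1KO, against 40.7, 419 and 24.9 CPM in Nf1KO. Of 10 tested calcium genes 0 were higher and 1, Casq2, was lower (median -0.12), and of 11 tested metabolic genes 0 were called in either direction by edgeR or DESeq2, and 0 had an unadjusted p under 0.05 (median 0.47). Of 11 tested membrane genes 1 rose and 1 fell (median 0.16). Dysf, a membrane repair gene also expressed outside muscle, rose by a log2 fold change of 1.15 (SE 0.29, edgeR adjusted p = 0.0485), and Capn3, a muscle protease, fell by 1.45 (SE 0.31, edgeR adjusted p = 0.0343). Dysf was at 23.0, 43.0 and 23.2 CPM in miR155KO_Nf1KO, against 11.7, 15.5 and 13.1 CPM in Nf1KO, and Capn3 was at 3.09, 2.63 and 3.96 CPM in miR155KO_Nf1KO, against 6.46, 9.40 and 10.5 CPM in Nf1KO.

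Of 11 regulators of muscle formation, 8 were too low to be tested. Myod1, Myog and Myf5, which direct muscle formation, had no read in any tumour but Nf809, where they had 1, 6 and 8 reads. Pax7, the marker of satellite cells, had 11 reads in MiRNC670 and 6 in Nf809, and none in the other 4 tumours. Myf6, the regulator that persists in mature fibres, had 0, 3 and 30 reads in miR155KO_Nf1KO, against 0, 46 and 0 reads in Nf1KO. Of the 3 that could be tested, 0 were called by edgeR or DESeq2 or had an unadjusted p under 0.05, where 26.7% of all genes did by edgeR (median -0.70).

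Markers of other tissues that a tumour piece can hold gave a mixed picture. For the counts that follow, edgeR called 5.22% of all genes higher and 4.74% lower in miR155KO_Nf1KO, and 26.7% had an unadjusted p under 0.05. The 8 neuron genes summed to 5930, 5190 and 8174 CPM in miR155KO_Nf1KO, against 1338, 2431 and 1258 CPM in Nf1KO, and 6 of 8 were called higher in miR155KO_Nf1KO. Their sum was thus highest in MiRNC670 and in Nf809 within their groups, the same tumours that were highest in muscle reads. The 9 smooth muscle genes summed to 134, 226 and 312 CPM in miR155KO_Nf1KO, against 255, 237 and 224 CPM in Nf1KO. Of these 9, 1 was called higher, Smtn, a smooth muscle cytoskeletal gene (0.97, SE 0.20, edgeR adjusted p = 0.0298). The smooth muscle sum was highest in MiRNC670 but did not stand out in Nf809. The 8 white fat genes summed to 138, 2416 and 704 CPM in miR155KO_Nf1KO, against 394, 72.9 and 348 CPM in Nf1KO. Of these 8, 0 were called by edgeR or DESeq2 or had an unadjusted p under 0.05, and the white fat sum was lowest in Nf809, the tumour with the most muscle reads. The 5 brown fat genes summed to 192, 701 and 494 CPM in miR155KO_Nf1KO, against 309, 166 and 432 CPM in Nf1KO. Of these 5, 1 was called higher, Ppargc1a, a regulator of mitochondrial genes also used in muscle, which within Nf1KO was highest in Nf809 (100.1 CPM). All 6 myelin genes and 1 of 5 Schwann cell genes were called higher in miR155KO_Nf1KO, and 4 of 6 macrophage genes and 3 of 6 fibroblast genes were called lower. The part of any of these tissues in the muscle values was not tested.

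Sex moved with muscle reads. For 28 of the 35 tested genes all 3 male tumours lay above all 3 female tumours, a pattern noticed after the values were seen. In a model with group and sex, the log2 value for male over female was positive for 34 of 35 (median 4.11, and 0.00 over all genes). By edgeR 0 of the 35 passed for sex (smallest adjusted p = 0.335), and of all genes 0.032% were called, namely Xist, Ddx3y, Eif2s3y, Kdm5d and Uty. At an unadjusted p under 0.05 for sex there were 29 of the 35, against 7.27% of all genes. Because the 35 genes moved together across the tumours, these 29 are not separate observations, and the count is no test of sex. With sex in the model, the median log2 fold change between groups was -0.20, and Actc1 was the 1 muscle gene called, as lower (-5.05, edgeR adjusted p = 0.0402), where 3.22% of all genes were, with 0 called higher, where 3.42% were. With 2 males of 3 in miR155KO_Nf1KO and 1 of 3 in Nf1KO, sex and the amount of muscle in each piece cannot be told apart.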

How the data were processed

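The authors deposited whole-number read counts per gene symbol, 1 column per tumour, with no scaling. The tools HISAT2 2.0.5 and featureCounts 1.5.2 and the build mm10 come from the submitters' processing notes, and the labels' protocols name a Qiagen RNeasy Plus Micro kit and an Illumina Nextera XT kit. The annotation, strand setting and treatment of reads with several matches are not stated in the labels. The two-sided quasi-likelihood test of edgeR 4.0.16 (R 4.3.3) was fitted on group alone. Genes had first passed filterByExpr at a minimum count of 10 and a total of 15, libraries were scaled by TMM, and Benjamini-Hochberg adjustment ran over 15604 genes. The same code was tested on simulated data. Standard errors are those implied by the F statistic. Coordinates and exon lengths (all exons merged) are from GENCODE M21 on GRCm38, which mm10 names, and promoters are from RefSeq. Tumours of 1 group differed by at least 22.7 times Poisson variance, so none was counted as a repeat. Intervals and floors cover counting error only: without molecular identifiers, reads are not independent molecules. The 40 genes, their classes and the 14 further lists were chosen with earlier results of these data known. Values by tumour are given for called genes, for the 3 genes of each role with the highest CPM per kilobase and for isoform pairs, and others in counts or ranges. From the further lists, genes that passed or had the smallest p are named, and remaining ones that the rule takes are given in counts and sums. Genes named beyond that were chosen after their values were seen. Alternatives were DESeq2 1.42.0 and its size factors, total counts, 2 other filters, limma 3.58.1 voom with sample quality weights, sex as a covariate, and leaving out tumours.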

Additional observations from a re-analysis of the deposited data

How the results depend on the processing

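No paired analysis was possible because the groups share no replicate numbers. Under 2 other scalings and 2 other filters, edgeR called 0 muscle genes higher and 1 lower, always Actc1, against at least 3.74% of all genes in each direction, and sums of CPM by class moved by less than the SD between tumours. Leaving out each tumour in turn gave between 0 and 5 genes higher and between 0 and 1 lower, and a median log2 fold change between -1.78 and 3.30, the count higher and the median being highest without Nf809. Of all genes, 7.38% were higher and 6.61% lower without Nf809, and 5.04% and 4.16% without MiRNC149. Without MiRNC640 these were 0.618% and 0.268%, and without MiRNC670, Nf803 or Nf827 they were 0.0%. Without MiRNC670 and Nf809, 1 muscle gene was higher, where 3.61% of all genes were. Voom, which fits log2 values, with sample quality weights, lowest for Nf809 (0.539), gave a median of 2.19. It called no muscle gene higher, where 9.52% of all genes were. Tnni2 reversed to 3.03 with voom and these weights, 0.30 with sex as a covariate and 3.06 without MiRNC670 and Nf809, and Xirp1 reversed to 0.45 without those 2 tumours. Over the fits without single tumours, log2 fold changes ran from -2.50 to 0.86 for Xirp1, -1.58 to 4.52 for Tnni2, -0.88 to 4.10 for Actn3, -1.12 to 7.12 for Myh4, -1.15 to 5.55 for Tnnc2 and -1.29 to 5.02 for Mybpc2. Actc1 ran from -6.60 to -4.90, with adjusted p between 0.00614 and 0.0994 by edgeR. Casq2 ran from -1.74 to -1.23, with adjusted p between 0.00632 and 0.108 by edgeR. It lost its call without MiRNC640, MiRNC670, Nf803 or Nf827, the fits in which few or no genes of any kind were called. Tnnt2 passed with DESeq2 (adjusted p = 0.00272), and by edgeR without Nf809 (0.0202) and without MiRNC670 and Nf809 (0.0239), and over its alternatives adjusted p ran from 0.00272 to 0.247. Tbx20 passed with DESeq2 (9.75e-04), voom (0.0455), and by edgeR with no filter (0.0483) and without MiRNC149 (0.0256), with a range from 9.75e-04 to 0.211. For these reversals the cause was not tested.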
